A study of Arabidopsis thaliana with 36 samples.

Results

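The *WRKY* transcription factor genes of *Arabidopsis thaliana* were followed during lateral root (LR) formation, from 12 to 36 h after its induction, in *puchi-1* and in the wild type (WT, Col-0). Their members were all genes whose symbol begins with WRKY and that had at least 15 reads summed over the 36 libraries, which held for 63 of the 67 *WRKY* genes in the count table and made them 63 of the 25889 genes over that limit. *WRKY34* had 0 reads, *WRKY64* had 1, *WRKY12* had 3 and *WRKY68* had 4, and these were left out of the tests. The *puchi-1* seedlings carry a mutation in *PUCHI*, an AP2/ERF transcription factor gene that is active in young primordia. Roots of 4-day-old seedlings grown in continuous light were turned to place the initiation of LRs in the bend. Bends were cut at 5 times (12, 18, 24, 30 or 36 hpg, hours post-gravistimulation), and a mature root segment between the bend and the shoot, without LR primordia, served as the ‘No LR’ material. The labels give 9 h for the ‘No LR’ segments and the methods give 12 hpg. Per the methods each of the 12 groups had 3 biological replicates, each pooled from more than 400 seedlings for bends and about 400 for ‘No LR’ segments.

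WRKY proteins are plant transcription factors that bind the W box, a short DNA element with a TTGAC core. Many of their genes are switched on within minutes to hours by pathogens, wounding, touch or salicylic acid, mitogen-activated protein (MAP) kinases phosphorylate several of the proteins, and *WRKY* promoters themselves often hold W boxes. In roots, members of the family act in phosphate supply, root hair growth and auxin-dependent development.

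Library totals lay between 31.7 and 121.6 M reads, with a median of 48.1 M. The median and the highest totals exceed the range of clusters per library given in the methods, and the lowest total is below it. The sources used here do not say why totals exceed that range. Levels are given below as CPM, reads per M reads of the library after TMM scaling of the library sizes. *PUCHI* itself was higher in each *puchi-1* library than in the WT libraries of the same stage, for example at 33.5, 36.7 and 40.6 CPM in *puchi-1* against 15.9, 14.5 and 19.7 CPM in WT at 18 hpg. The study describes *puchi-1* as a loss of function, but what the lesion does to the transcript is not given in the sources used here, so the transcript level is no check of the genotype. Of the 36 sample titles, 31 carry a month and what the date marks is not stated. There are 4 libraries dated March (*puchi-1* at 12 hpg replicate 1, 18 hpg replicate 1 and 24 hpg replicate 2, and WT at 18 hpg replicate 1), 7 dated June, 12 dated July and 8 dated August. The title of 1 June library, WT at 12 hpg replicate 1, carries a later year than every other title with a year. The titles of replicates 2 and 3 of the *puchi-1* ‘No LR’ segments carry the same number and date, with ‘bis’ added to that of replicate 3. Their counts differed beyond sampling noise (chi-square per degree of freedom over genes 70.8, against 26 to 365 over the 36 pairs of replicates). They were the closest pair of ‘No LR’ libraries, where the other pairs had 136 to 365. Such a difference cannot show whether they came from separate pools of seedlings, and they were kept as separate replicates. Replicate 1 of the ‘No LR’ segments, undated in both genotypes, stood apart: 7 root hair genes averaged 4.29 in *puchi-1* and 4.58 in WT on the log2 CPM scale, against 0.99 and -3.24 in the other *puchi-1* libraries and -1.39 and -3.33 in the other WT libraries of these segments, and 8 genes of the endodermal barrier stood at 5.97 and 6.01, against 1.65, -0.41, 0.92 and -0.67. These 2 libraries lay near the 12 hpg bends, where the root hair list had 4.88 to 5.36 in *puchi-1* and 4.05 to 4.78 in WT. A smaller share of a cell type and less RNA per cell cannot be told apart in these bulk samples.

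The W box content of the members’ promoters was read from the TAIR10.1 genome (RefSeq), over the 250 bases before each annotated transcript start. Both TTGACC and TTGACT were searched on both strands, where they read GGTCAA and AGTCAA on the other strand. At least 1 such box lay in 22 of 63 member promoters (34.9%), against 28.4% of 27443 protein-coding genes, and 2 or more lay in 10 (15.9%), against 6.18% of all. *WRKY30* held 3, and *WRKY15*, *WRKY17*, *WRKY29*, *WRKY32*, *WRKY33*, *WRKY41*, *WRKY45*, *WRKY53* and *WRKY62* held 2 each. The members with the widest spread between replicates, described below, held a box in 7 of 14 and 2 or more in 5, against 15 and 5 of the other 49. A match of letters is a description of the sequence and not a bound site. The promoters below belong to *WRKY33*, *WRKY53*, *WRKY41* and *WRKY30*, wide-spread members with 2 or more boxes, and to *WRKY45*, which differed between the genotypes. They are written 5′ to 3′ along the gene, with W boxes in capitals.
WRKY33 (chr2:16107985-16108234, forward strand): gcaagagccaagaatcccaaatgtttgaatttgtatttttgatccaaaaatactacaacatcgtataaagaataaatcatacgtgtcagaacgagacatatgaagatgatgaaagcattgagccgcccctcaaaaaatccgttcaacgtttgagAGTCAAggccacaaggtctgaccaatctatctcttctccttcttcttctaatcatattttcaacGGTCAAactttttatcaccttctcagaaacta
WRKY53 (chr4:12393983-12394232, reverse strand): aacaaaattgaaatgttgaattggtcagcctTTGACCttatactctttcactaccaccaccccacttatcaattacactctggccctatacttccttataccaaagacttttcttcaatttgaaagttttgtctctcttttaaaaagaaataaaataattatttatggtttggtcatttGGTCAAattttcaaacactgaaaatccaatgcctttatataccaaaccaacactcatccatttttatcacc
WRKY41 (chr4:6758848-6759097, forward strand): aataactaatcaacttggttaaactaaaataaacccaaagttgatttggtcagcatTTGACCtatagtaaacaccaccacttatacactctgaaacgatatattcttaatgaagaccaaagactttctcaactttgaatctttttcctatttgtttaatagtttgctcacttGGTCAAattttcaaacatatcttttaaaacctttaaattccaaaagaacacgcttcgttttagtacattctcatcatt
WRKY30 (chr5:8154711-8154960, reverse strand): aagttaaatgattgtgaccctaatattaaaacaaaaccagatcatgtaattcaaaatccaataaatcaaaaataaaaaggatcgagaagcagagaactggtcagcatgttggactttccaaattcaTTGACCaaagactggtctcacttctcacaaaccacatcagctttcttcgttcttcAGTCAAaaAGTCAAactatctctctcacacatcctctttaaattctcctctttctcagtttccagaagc
WRKY45 (chr3:327413-327662, reverse strand): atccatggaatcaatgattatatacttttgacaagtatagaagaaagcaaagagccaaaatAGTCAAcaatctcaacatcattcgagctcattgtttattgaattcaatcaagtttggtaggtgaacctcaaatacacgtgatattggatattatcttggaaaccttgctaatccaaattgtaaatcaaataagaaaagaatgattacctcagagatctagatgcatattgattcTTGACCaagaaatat
In *WRKY53* the boxes began 219 and 71 bases before the start and faced opposite ways, and in *WRKY41* they began 194 and 78 bases before it, also in opposite directions. In *WRKY30*, 2 of the 3 boxes lay on the same strand, 69 and 61 bases before the start. No such box lay in the 250 bases of *WRKY40*, *WRKY46*, *WRKY18*, *WRKY24*, *WRKY56*, *WRKY43* or *WRKY71*.

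Most of the family was read in these roots. Of the 63 members, 52 had reads in every library and 11 had 0 reads in at least 1 library. An average over 10 CPM was reached by 45 members, and 11 averaged under 1 CPM. Per kb of exon sequence the highest were *WRKY33* at 116 CPM per kb, *WRKY40* at 88, *WRKY15* at 80, *WRKY17* at 73.8 and *WRKY65* at 69.6. *WRKY33* controls camalexin synthesis and is a MAP kinase substrate, *WRKY40* is a repressor of defence and abscisic acid responses, and *WRKY15* and *WRKY17* encode calmodulin-binding members of subgroup IId. The lowest were *WRKY67*, *WRKY10*, *WRKY49*, *WRKY55* and *WRKY13*, between 0.00786 and 0.179 CPM per kb. No stretch of 100 bases in the exons of any member occurs elsewhere in the genome, so identical copies did not share reads of that length, and the counting used the strand.

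The spread between replicates was wide for part of the family. The SD of log2 CPM within groups had a median of 0.44 over the 63 members and of 0.28 over all 25889 genes. It was 2.24 for *WRKY40*, 2.2 for *WRKY62*, 2.05 for *WRKY46*, 1.79 for *WRKY59* and 1.68 for *WRKY53*, the 5 largest among the members. It was at least 1 in 14 members and under 0.25 in 19, with *WRKY19* and *WRKY20* at 0.10 and *WRKY32* at 0.11. *WRKY19* lay between 38.3 and 55.9 CPM over all 36 libraries, and *WRKY20* between 34.7 and 47.3 CPM.

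**Figure D1:**
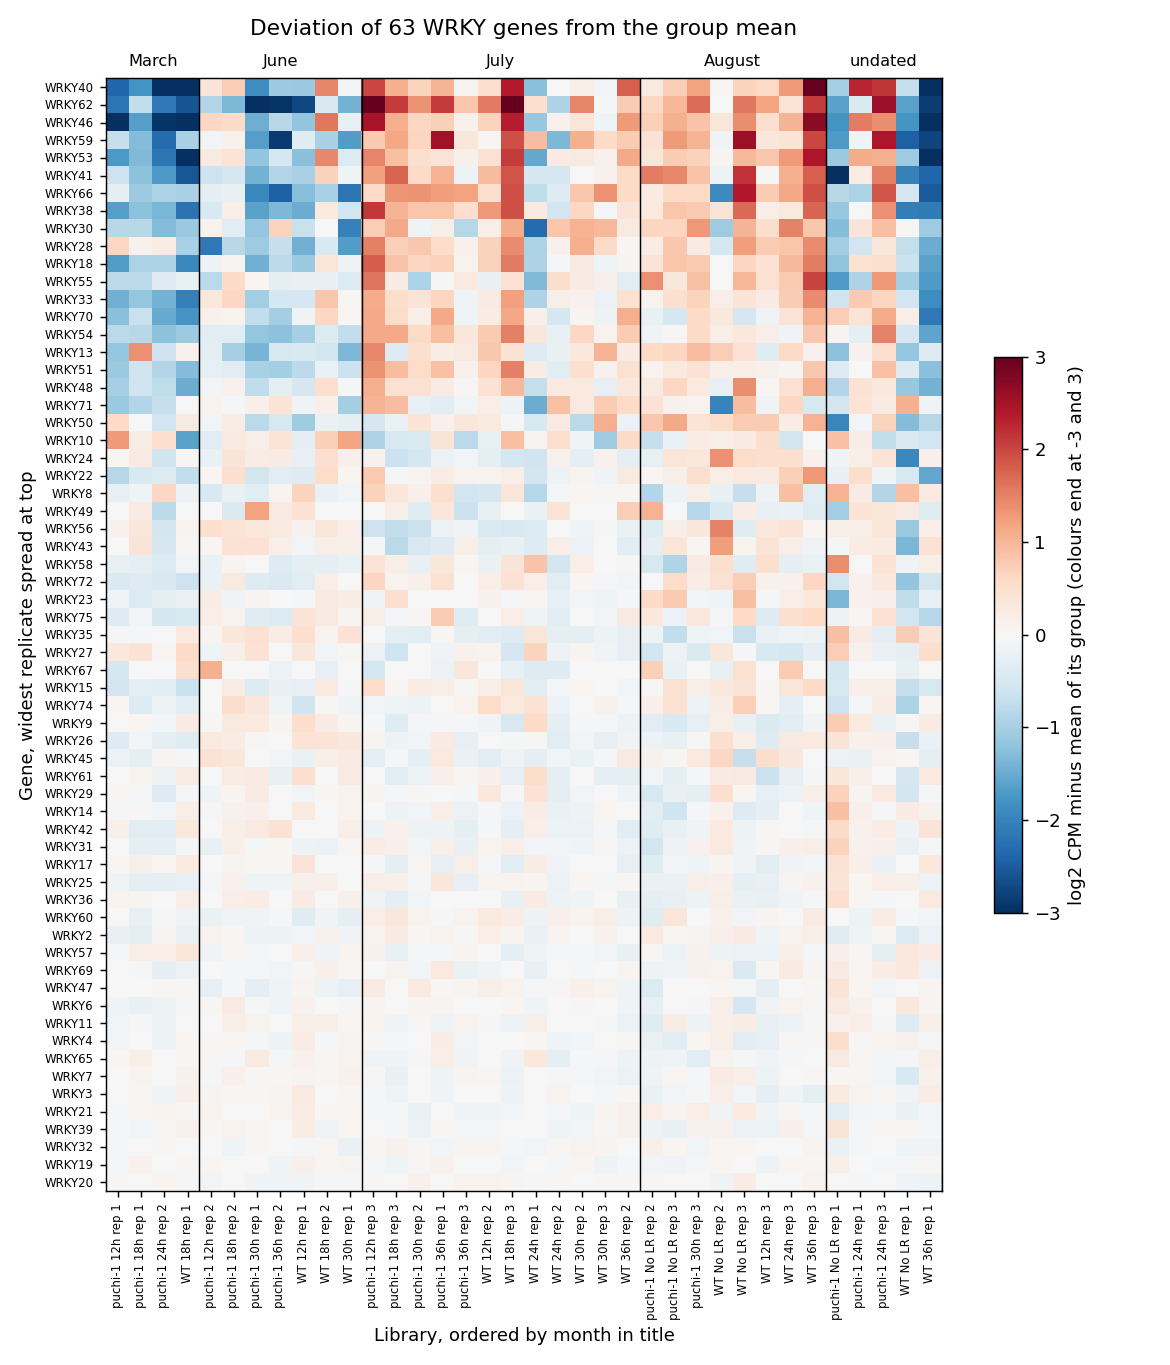
Log2 CPM of each of the 63 *WRKY* members in each library (columns) minus the mean of its group of 3 replicates (colour, ending at -3 and 3), with members ordered by their spread and libraries by the month in the sample title, *puchi-1* before WT within a month. The 14 members at the top, with an SD of 1 or more, are mostly blue in the 4 March and 7 June libraries and mostly red in the 12 July and 8 August libraries, while the lowest rows stay near 0.

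The libraries that were low were largely the same ones for part of the family. For 13 members the 4 March libraries were among the 5 lowest of the 36, and for 11 of them the fifth was WT 36 hpg replicate 1, which is undated. These 11 were *WRKY18*, *WRKY22*, *WRKY33*, *WRKY38*, *WRKY40*, *WRKY46*, *WRKY48*, *WRKY51*, *WRKY53*, *WRKY54* and *WRKY70*. Of these, *WRKY22*, *WRKY48*, *WRKY51* and *WRKY54* had an SD under 1. *WRKY28*, *WRKY30* and *WRKY55*, with an SD over 1, had only 1 March library among their 5 lowest. A test for any difference between the 4 dated months, with genotype and stage in the same edgeR fit, was added after the low libraries were seen. It was passed by 25 of 63 members (39.7%), against 9.71% of all genes (2515), at an adjusted p under 0.05. Of the 25, 22 were higher in August than in March and 3 were lower, against 1726 and 789 of the 2515 genes. An increase in the order March, June, July, August held for 17 of the 25, and was not counted over all genes. All 14 members with an SD of 1 or more passed, and 11 of the other 49. Since the test was chosen for what the libraries showed, its p-values are a description of that pattern.

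*WRKY40*, *WRKY18* and *WRKY60* form subgroup IIa, whose proteins pair with each other and repress defence and abscisic acid genes. *WRKY40* (chr1:30383561-30385499, forward strand) had 357, 491 and 229 CPM in *puchi-1* and 228, 346, 177, 169 and 179 CPM in WT in the August libraries. In the March libraries it had 0.305, 8.37 and 12.9 CPM in *puchi-1* and 2.19 CPM in WT. WT 36 hpg replicate 1 had 0.548 CPM, and no library outside these 5 was below 27.2 CPM. The medians by month were 5.28 CPM in March, 57.3 in June, 82.7 in July and 228 in August, without overlap of March with any later month. Against March the log2 differences were 3.60 in June, 4.86 in July and 6.05 in August (edgeR, adjusted p = 0.000669). *WRKY18* had medians of 8.22, 25.5, 44.1 and 95 CPM in the same order, and was 3.50 higher on the log2 scale in August than in March (adjusted p = 2.31e-05). *WRKY60*, the third member of the subgroup, stayed between 25.8 and 47.1 CPM in all libraries, and was 0.30 higher on the log2 scale in August than in March (adjusted p = 0.0448).

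Group III members tied to salicylic acid and leaf senescence moved by month as well, with all 7 of the list past the test. *WRKY46* had at least 4.89 CPM in every library dated June, July or August, against 0.386, 2.29 and 0.339 CPM in the *puchi-1* libraries and 0.287 CPM in the WT library dated March. *WRKY53*, a regulator of leaf senescence, had monthly medians of 2.6, 15.2, 25.6 and 52 CPM from March to August, and was 4.66 higher on the log2 scale in August. *WRKY70* and *WRKY54*, which restrain senescence and salicylic acid synthesis, were 2.18 and 2.21 higher in August than in March. *WRKY38*, a repressor of basal defence, was 4.06 higher. *WRKY62*, which acts with it, had 0, 3 and 1 reads in the *puchi-1* libraries and 0 reads in the WT library dated March, so no fold is given for it. *WRKY30*, induced by reactive oxygen, was 3.11 higher (edgeR, adjusted p = 0.0323). Its levels were low, at 0 to 0.726 CPM in March and 0.544 to 2.85 CPM in August, which limits this fold.

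The MAP kinase-linked members divided. *WRKY33* had monthly medians of 44.5, 185, 241 and 392 CPM from March to August and was 3.26 higher on the log2 scale in August (adjusted p = 5.83e-05). *WRKY22*, at the end of the kinase cascade triggered by flagellin, was 1.75 higher (adjusted p = 0.00471). *WRKY25*, *WRKY26* and *WRKY29* did not pass. The 3 members that were lower in August were *WRKY35*, *WRKY27* and *WRKY36*, by 0.61, 1.1 and 0.42 on the log2 scale. *WRKY35*, of subgroup IIe, had 6.14 to 14.5 CPM in August and 13.1 to 19.9 CPM in March.

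**Figure D2:**
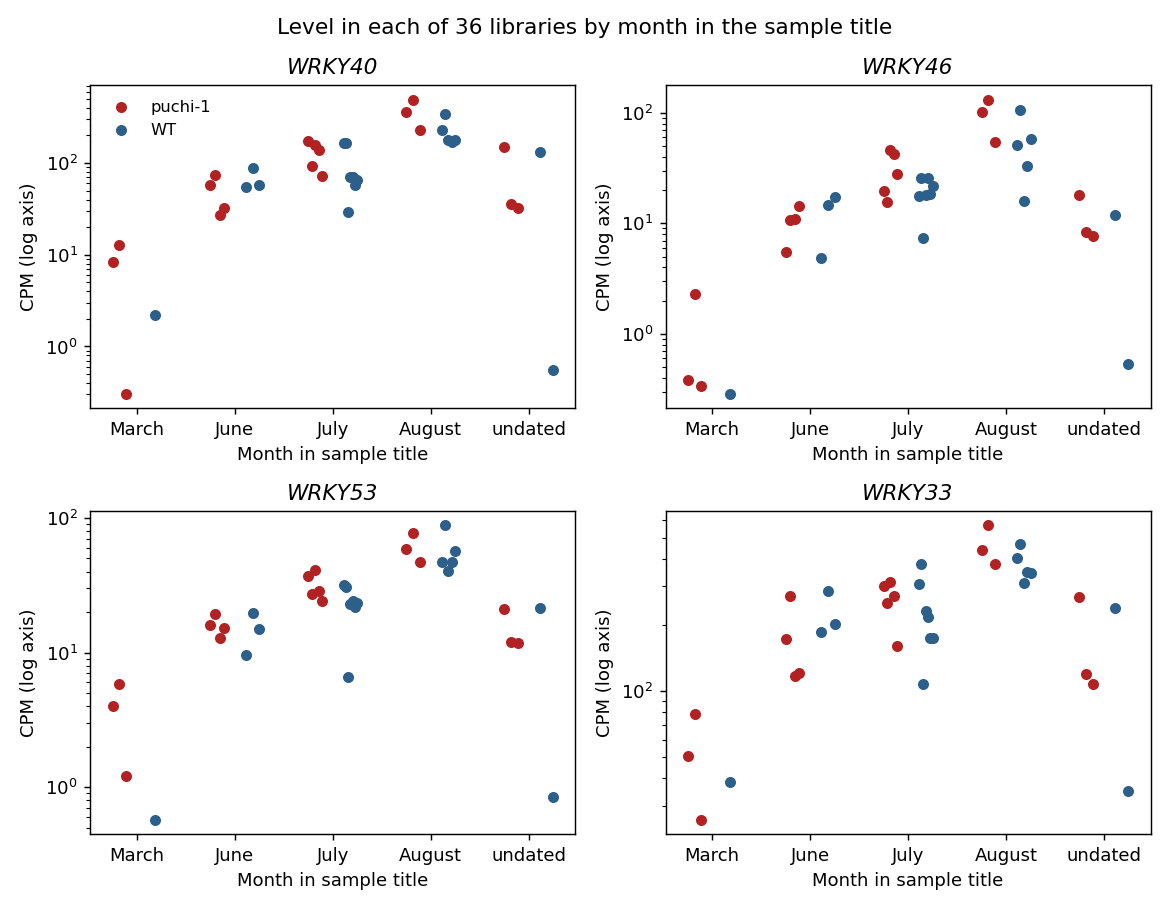
CPM on a log axis of *WRKY40*, *WRKY46*, *WRKY53* and *WRKY33* in each of the 36 libraries by the month in the sample title (*puchi-1* red, left, and WT blue, right; 1 point is 1 library). The 4 March libraries and 1 undated WT library (36 hpg replicate 1) lie below the others, for *WRKY40* at 12.9 CPM or less against 27.2 CPM or more.

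Other fast-responding genes were low in the same libraries. All 13 genes of a list of touch and fast stress genes passed the test by month, each higher in August than in March (median log2 difference 2.98), and so did all 11 jasmonate and wound genes tested (median 4.89). Over all genes tested the median was -0.01. The mean log2 CPM of the touch list was 3.26, 4.08 and 1.94 in the *puchi-1* libraries dated March, 2.59 in the WT one and 1.74 in WT 36 hpg replicate 1, against 4.60 to 6.75 in the other 31 libraries. For the jasmonate and wound list it was 0.91 to 2.50 in the same 5 libraries and 3.44 to 7.46 in the others. Within the family, none of the 4 phosphate members and 1 of 7 members of subgroup IId passed. Among genes that work with the family, 4 of 6 MAP kinase genes and 3 of 4 VQ protein genes passed and were higher in August, and 2 of 10 known targets passed. Of the lists of root tissues, 1 of 7 LR primordium genes and 2 of 8 endodermal barrier genes passed. No root hair gene did, but the median August minus March difference was -2.22 over the 7 root hair genes and -2.40 over the barrier genes. The part of these genes in the levels of the *WRKY* members was not tested.

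The 4 dated ‘No LR’ libraries are all from August and the bends are from all 4 months. At 12 hpg no *puchi-1* library and 1 WT library (replicate 3) is from August, so month and stage overlap little in a comparison of these bends with ‘No LR’ segments. At 24 hpg the genotypes share no dated month, with *puchi-1* from March and undated and WT from July and August. At the other stages at least 1 month occurred in both genotypes.

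Between the genotypes, 7 members passed the test on the difference of *puchi-1* minus WT averaged over the 5 bend times. These were 11.1% of the members, against 10.9% of all genes tested. The 2 that were higher in *puchi-1*, against 5.57% of all genes, were *WRKY71* and *WRKY2*. The 5 that were lower, against 5.32% of all genes, were *WRKY24*, *WRKY75*, *WRKY56*, *WRKY45* and *WRKY26*. The median log2FC was -0.08 over the 63 members and -0.01 over all genes.

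*WRKY71* (chr1:10454433-10455874, forward strand), which promotes axillary meristem initiation and flowering, had the largest called difference. At 36 hpg it had 1.38, 2.3 and 1.62 CPM in *puchi-1*, from 92, 114 and 208 reads, against 0.128, 0.233 and 0.0903 CPM in WT, from 7, 11 and 4 reads. At 30 hpg it had 1.39, 1.04 and 1.36 CPM in *puchi-1* against 0.0400, 0.153 and 0.229 CPM in WT. At 12 hpg the genotypes overlapped, with 0.0680, 0.208 and 0.425 CPM in *puchi-1* and 0.303, 0.387 and 0.304 CPM in WT. At 18, 30 and 36 hpg and in ‘No LR’ segments, every *puchi-1* library was above the WT libraries of its stage. At 36 hpg the log2FC was 3.53 (SE 0.765, adjusted p = 0.0175, 1 of 63 members past the test against 0.954% of all genes) and 3.14 at 30 hpg (SE 0.758, adjusted p = 0.0567). Over the bends it was 1.84 (SE 0.343, adjusted p = 0.000792). Leaving out WT replicate 1, 2 or 3 (adjusted p = 0.113, 0.0537 and 0.103) or *puchi-1* replicate 2 (0.052) put the 36 hpg difference above the threshold, whereas the call over the bends was kept without any 1 library. *WRKY71* was also the member with the smallest p for a genotype difference that changed with time, but this missed the threshold (edgeR, adjusted p = 0.861). No member passed that test (0 of 63, against 0.0155% of all genes), with 0 by DESeq2 (against 0.274%). At an unadjusted p under 0.05 there was 1, against 4.08% of all genes.

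**Figure D3:**
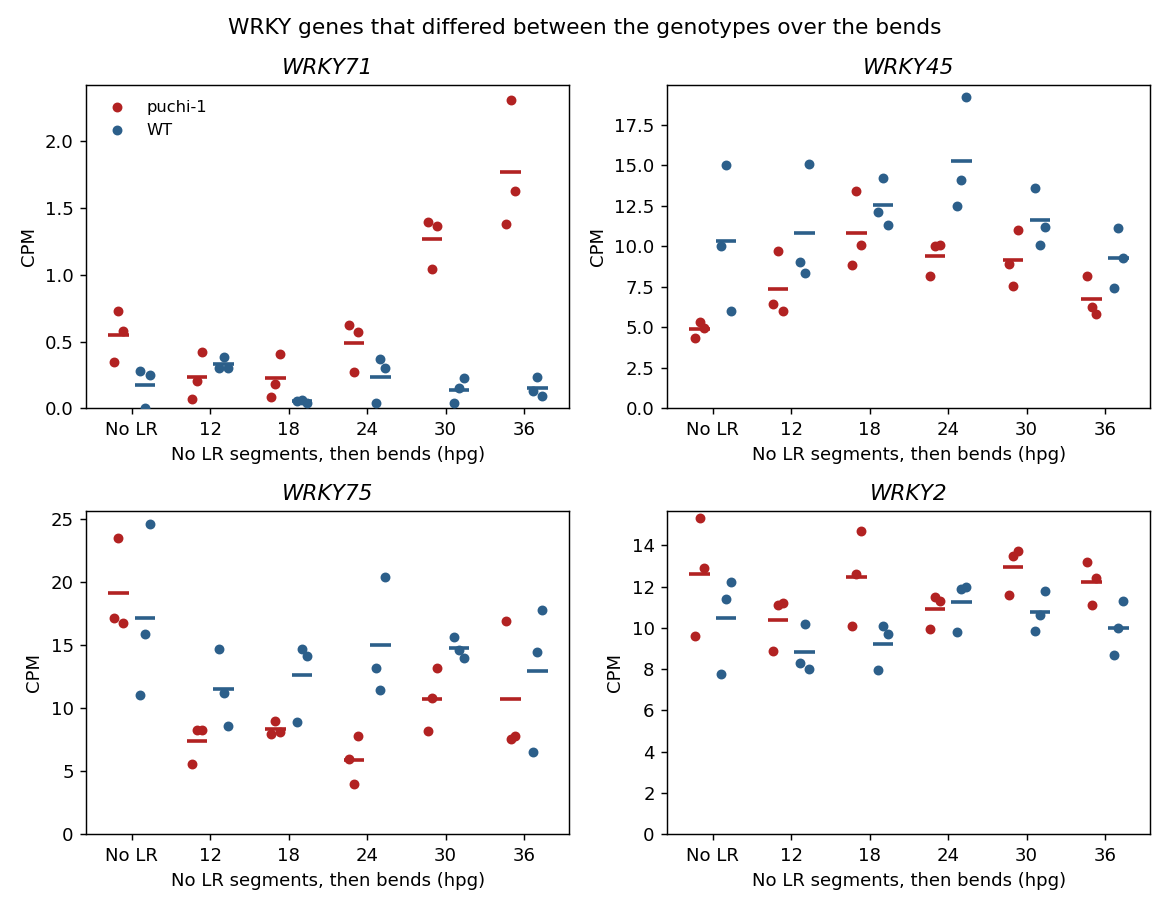
CPM of *WRKY71*, *WRKY45*, *WRKY75* and *WRKY2* in ‘No LR’ segments and at 12 to 36 hpg (*puchi-1* red, left, and WT blue, right; points are the 3 replicates and bars their mean). *WRKY71* lies between 1.04 and 2.3 CPM in *puchi-1* at 30 and 36 hpg and at 0.233 CPM or below in WT.

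*WRKY24* and *WRKY56* were lower in the *puchi-1* bends than in the WT bends. *WRKY24* (chr5:16624157-16625977, forward strand) had 1.25, 1.04 and 1.31 CPM in *puchi-1* at 12 hpg, against 3.11, 3.05 and 5.24 CPM in WT. At 24 hpg it had 13.9, 8.13 and 16.4 CPM in *puchi-1*, against 18.0, 29.6 and 37.8 CPM in WT. At 36 hpg it had 17.4, 23.1 and 18.4 CPM in *puchi-1*, against 35.7, 26.6 and 35.3 CPM in WT. The genotypes did not overlap at 12, 18, 24 and 36 hpg, and overlapped at 30 hpg and in ‘No LR’ segments. Lack of overlap was not counted over all genes, and it describes the same values as the test. The difference over the bends was -1.03 (SE 0.207, adjusted p = 0.00169). *WRKY56* (chr1:23747304-23749053, forward strand) had 3.29, 4.26 and 1.93 CPM in *puchi-1* at 12 hpg, against 8.05, 5.51 and 9.21 CPM in WT, and was lower over the bends by 0.82 on the log2 scale (SE 0.196, adjusted p = 0.00742). It did not overlap at the same 4 times as *WRKY24*. *WRKY43* did not overlap between the genotypes at 12 and 18 hpg and did not pass.

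Of the 4 members that act in phosphate supply, *WRKY75* and *WRKY45* were lower in *puchi-1* than in WT over the bends, where 5.32% of all genes were called lower. *WRKY75* (chr5:4149738-4151201, reverse strand) is induced by phosphate starvation and modulates root hairs and LR number. It had 5.93, 3.97 and 7.81 CPM in *puchi-1* at 24 hpg, against 13.2, 11.4 and 20.4 CPM in WT, and the genotypes did not overlap at 12, 24 and 30 hpg. Over the bends it was lower by 0.66 on the log2 scale (SE 0.156, adjusted p = 0.00656). At 24 hpg alone its log2FC was -1.35 (adjusted p = 0.0701).
*WRKY45* (chr3:325952-327412, reverse strand), an activator of the phosphate transporter gene *PHT1;1*, had 4.32, 5.33 and 4.97 CPM in *puchi-1* ‘No LR’ segments, against 10, 15 and 6.04 CPM in WT. It was the 1 member past the test there (log2FC -1.09, SE 0.267, adjusted p = 0.0426, against 1.06% of all genes). The call was lost without any of the *puchi-1* libraries (adjusted p = 0.0572, 0.128 and 0.0996) and without WT replicate 1 (0.065) or 2 (0.218). It was also lost when the *puchi-1* libraries with the same number and date in their titles were summed to 1 (0.125). Over the bends *WRKY45* was lower in *puchi-1* by 0.45 on the log2 scale (SE 0.118, adjusted p = 0.0129), and it missed the threshold there without the 4 March libraries (0.0764). *WRKY6* and *WRKY42*, repressors of the phosphate exporter gene *PHO1*, did not pass. *PHO1* itself was lower in *puchi-1* over the bends by 0.21 on the log2 scale (adjusted p = 0.0133).

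*WRKY26*, which acts with *WRKY25* and *WRKY33* in heat tolerance, had 20.4, 15.4 and 20.7 CPM in *puchi-1* at 24 hpg, against 33.5, 25.9 and 39.4 CPM in WT. Over the bends it was lower in *puchi-1* by 0.36 on the log2 scale (SE 0.116, adjusted p = 0.0458). *WRKY2*, which acts in the polarity of the zygote, had 13.2, 11.1 and 12.4 CPM in *puchi-1* at 36 hpg, against 8.70, 9.97 and 11.3 CPM in WT, with overlap, and was higher over the bends by 0.24 (SE 0.0758, adjusted p = 0.0417). Both calls were lost when some single libraries were left out, with an adjusted p of up to 0.101 for *WRKY26* and 0.0822 for *WRKY2*. *WRKY2* also passed the test by month, 0.44 higher on the log2 scale in August than in March (edgeR, adjusted p = 0.0115). Without the 4 March libraries, 4 members passed over the bends (against 5.18% of all genes), *WRKY71*, *WRKY24*, *WRKY75* and *WRKY56*, and with only the bend libraries in the fit 12 passed (against 18.5%).

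**Figure D4:**
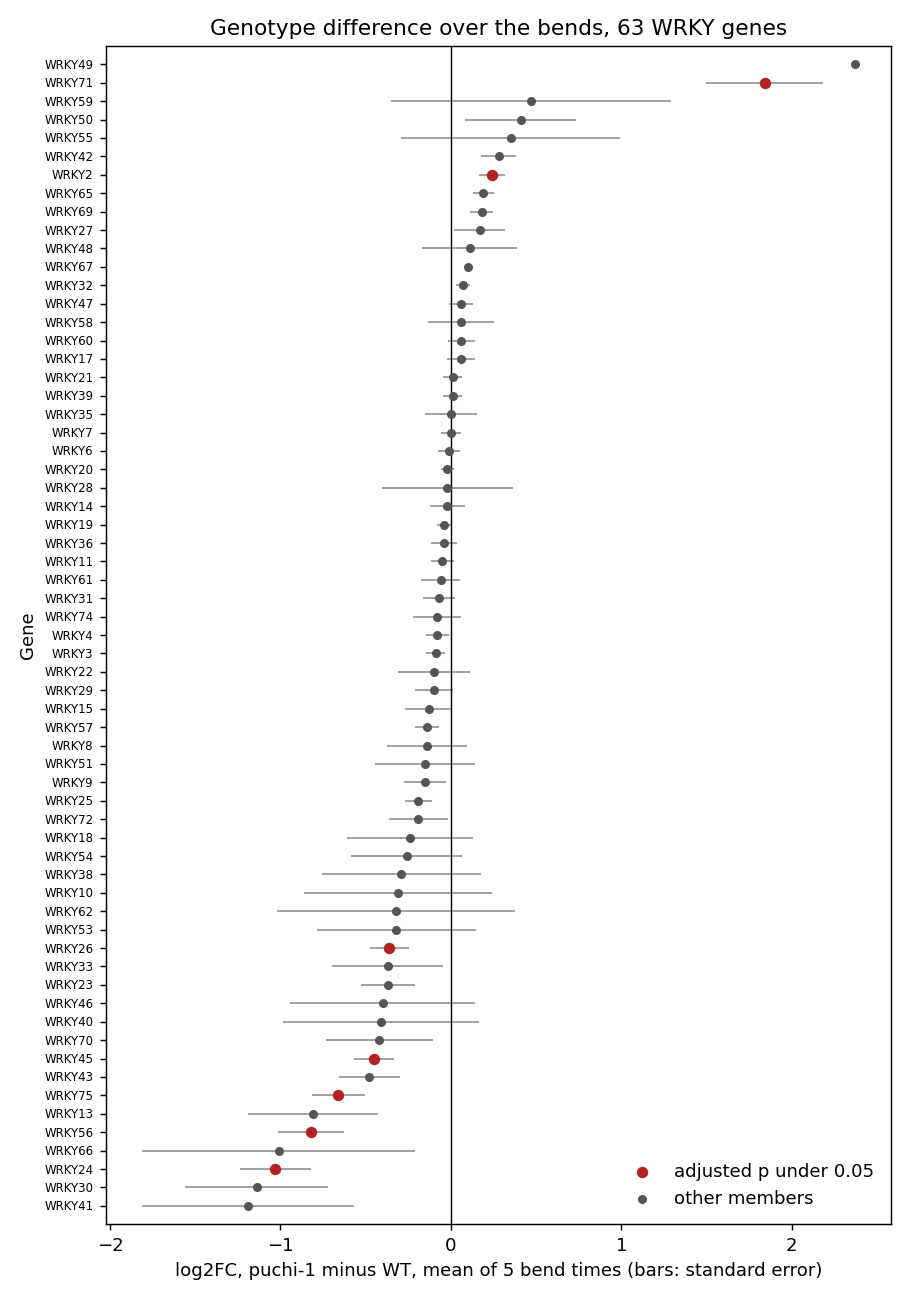
Log2FC of *puchi-1* minus WT averaged over the 5 bend times for the 63 *WRKY* members, with standard errors from edgeR (none drawn for *WRKY49* and *WRKY67*, which had groups at 0 reads). Red points mark the 7 members past the test, *WRKY71* and *WRKY2* to the right and *WRKY24*, *WRKY75*, *WRKY56*, *WRKY45* and *WRKY26* to the left of 0.

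At the single stages few members passed. At 12 hpg the test was passed by 0 members, against 0.0734% of all genes, at 18 hpg by 0, against 0.421%, at 24 hpg by 0, against 0.695%, and at 30 hpg by 0, against 0.498%. At an unadjusted p under 0.05 there were 3, 7, 10 and 2 members at these 4 times, against 7.4%, 10.1%, 14.6% and 5.96% of all genes. DESeq2 called 0, 0, 2 and 1 members, against 0.311%, 1.1%, 2.28% and 0.898% of all genes. At 12 hpg the members with the smallest p were *WRKY24*, *WRKY56* and *WRKY45* (log2FC -1.67, -1.25 and -0.55), and at 18 hpg *WRKY2*, *WRKY24* and *WRKY71* (0.43, -1.15 and 2.06). At 24 hpg *WRKY30* followed *WRKY75*, with 0.0837, 0 and 0.136 CPM in *puchi-1* against 0.124, 1.40 and 2.21 CPM in WT (adjusted p = 0.0758). The members leaned to 1 side at several stages. In ‘No LR’ segments 52 were higher and 11 lower in *puchi-1*, with a median log2FC of 0.20 against -0.01 over all genes. At 12, 18 and 24 hpg 45, 44 and 46 were lower, with medians of -0.24, -0.20 and -0.30 against -0.02, -0.01 and 0.00. At 30 and 36 hpg 37 and 40 were higher, with medians of 0.04 and 0.09. The March libraries are 3 *puchi-1* libraries and 1 WT library and all lie at 12 to 24 hpg, and none is a ‘No LR’ library. The medians of other lists varied by stage too. That of the jasmonate and wound genes was 0.56 for ‘No LR’, then -0.78 at 12 hpg, -0.62 at 18 hpg, -1.52 at 24 hpg, 1.24 at 30 hpg and -0.17 at 36 hpg. The touch and fast stress genes had 0.27, -0.45, -0.05, -0.97, 0.43 and 0.16 in the same order. A list of 4 photosynthesis genes, as a sign of shoot tissue, had 1.31 in ‘No LR’ segments and -0.95 at 24 hpg. No gene of these 3 lists passed at a single stage, and the part of these genes and of the March libraries in the medians of the members was not tested.

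The wide-spread members showed no called difference between the genotypes in the edgeR fit of all groups. *WRKY40* had a log2FC over the bends of -0.41 (SE 0.574, adjusted p = 0.734), *WRKY33* one of -0.37 (SE 0.326, adjusted p = 0.539) and *WRKY46* one of -0.40 (SE 0.544, adjusted p = 0.725). Their standard errors are above that of *WRKY60*, 0.0792, whose log2FC was 0.06. Among genes shared between data sets on PUCHI targets, the study lists *WRKY30* and *WRKY70*, both wide-spread here. Its RNA-seq calls in that comparison came from DESeq2 with a fold limit, unlike the calls here.

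Through time, *WRKY24*, *WRKY56* and *WRKY43* changed in both genotypes and were on average lowest at 12 hpg. In WT, *WRKY24* had 3.11, 3.05 and 5.24 CPM at 12 hpg, 13.5, 18.8 and 9.16 CPM at 18 hpg, 18.0, 29.6 and 37.8 CPM at 24 hpg, 34.3, 25.5 and 33.9 CPM at 30 hpg and 35.7, 26.6 and 35.3 CPM at 36 hpg. In *puchi-1* it had 1.25, 1.04 and 1.31 CPM at 12 hpg, 7.13, 7.74 and 3.81 CPM at 18 hpg, 13.9, 8.13 and 16.4 CPM at 24 hpg, 26, 15.5 and 27.6 CPM at 30 hpg and 17.4, 23.1 and 18.4 CPM at 36 hpg. The 12 hpg libraries were below all later bends in both genotypes. A change over the 5 bend times was found for 18 members in *puchi-1* (28.6%, against 24.4% of all genes) and for 11 in WT (17.5%, against 28.2%). In WT the count was 18 with DESeq2 (against 37.7% of all genes) and 21 with the title month as a covariate (against 38.3%). The calls shared by both were *WRKY6*, *WRKY7*, *WRKY21*, *WRKY23*, *WRKY24*, *WRKY25*, *WRKY32*, *WRKY43*, *WRKY56* and *WRKY69*, 10 genes or 55.6% of those in *puchi-1* and 90.9% of those in WT. That a gene passed in 1 genotype does not show that the genotypes differed. Tissue markers changed over the same times. Of the 8 endodermal barrier genes 7 passed in each genotype, with a median log2 difference of 36 minus 12 hpg of -5.68 in *puchi-1* and -4.29 in WT. Of the 7 root hair genes 7 passed in *puchi-1* (median -5.44) and 1 in WT (median -3.17). Their part in the changes of the members was not tested.

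**Figure D5:**
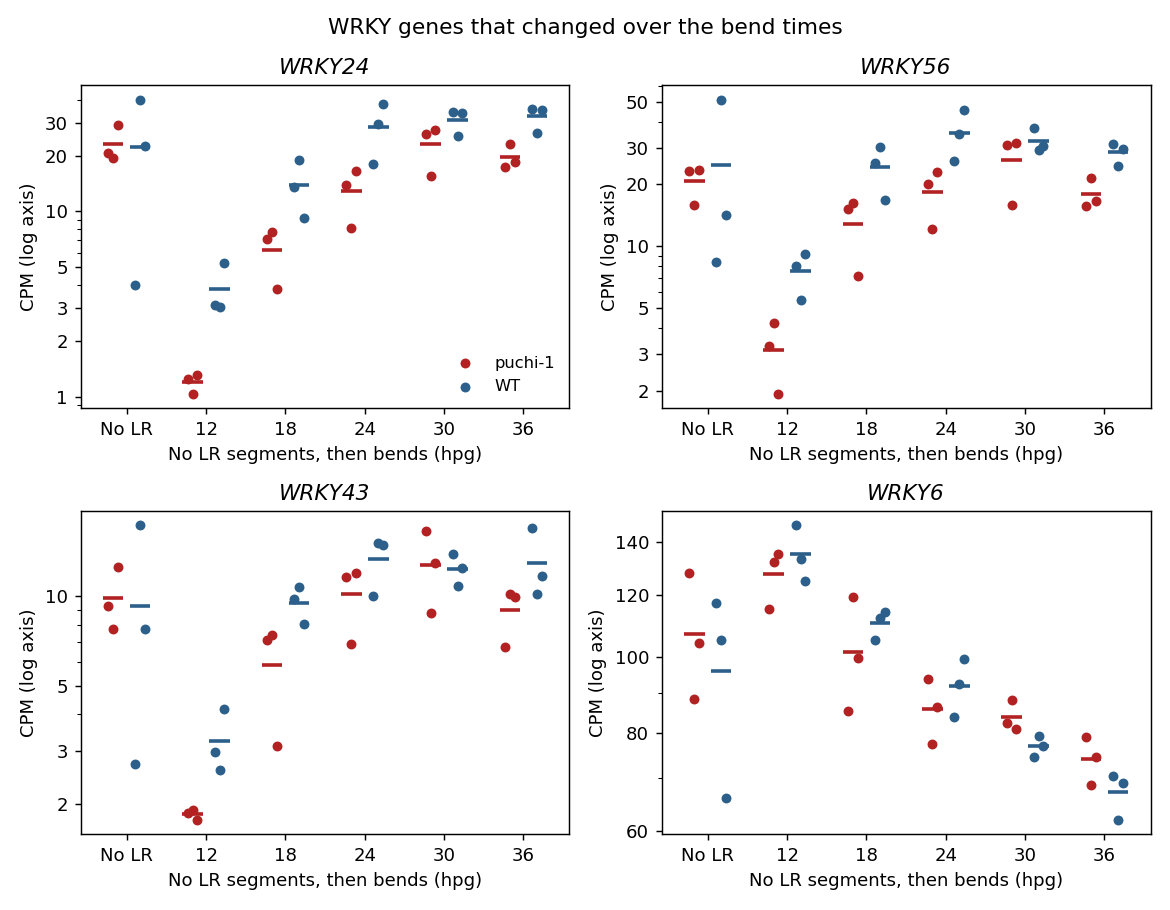
CPM on a log axis of *WRKY24*, *WRKY56*, *WRKY43* and *WRKY6* in ‘No LR’ segments and at 12 to 36 hpg (*puchi-1* red, left, and WT blue, right; points are the 3 replicates and bars their mean). *WRKY24*, *WRKY56* and *WRKY43* are lowest at 12 hpg, and *WRKY6* is lower at 36 hpg than at 12 hpg in both genotypes.

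At 36 hpg compared with 12 hpg, *WRKY24* was higher by 4.04 in *puchi-1* and 3.10 in WT on the log2 scale (adjusted p of the change over time 3.31e-05 and 0.000357). *WRKY56* was higher by 2.49 and 1.91, and *WRKY43* by 2.28 and 1.99. *WRKY23*, an auxin-responsive gene of root development, had 16.1, 15.8 and 15.9 CPM at 36 hpg and 3.20, 4.05 and 3.20 CPM at 12 hpg in *puchi-1*. In WT it had 13.6, 15.5 and 20.2 CPM at 36 hpg and 5.45, 6.21 and 5.47 CPM at 12 hpg. It was higher at 36 hpg by 2.19 in *puchi-1* (adjusted p = 0.00054) and 1.52 in WT (adjusted p = 0.0187). In subgroup IId, *WRKY7* and *WRKY21* were higher by 0.50 and 0.70 in *puchi-1* and by 0.57 and 0.61 in WT.

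*WRKY6*, the *PHO1* repressor, went the other way. It had 78.9, 68.6 and 74.4 CPM at 36 hpg and 115, 132 and 135 CPM at 12 hpg in *puchi-1*, and 70.4, 62.0 and 69.0 CPM at 36 hpg and 147, 133 and 125 CPM at 12 hpg in WT. The 36 hpg libraries were below the 12 hpg libraries in both genotypes, with a difference of -0.78 in *puchi-1* (adjusted p = 0.00183) and -1.01 in WT (adjusted p = 0.000132). *WRKY25* and *WRKY69* were also lower at 36 hpg, by 0.66 and 0.69 in *puchi-1* and by 0.82 and 0.79 in WT. *WRKY32*, among the steadiest members, had 29.2, 31.4 and 32.7 CPM at 36 hpg and 22.4, 22.7 and 23.5 CPM at 12 hpg in *puchi-1*, a difference of 0.44. In *puchi-1* the calls beyond those shared were *WRKY71*, *WRKY30*, *WRKY41*, *WRKY48*, *WRKY49*, *WRKY50*, *WRKY59* and *WRKY74*, of which *WRKY41*, *WRKY59* and *WRKY49* had 0 reads in at least 1 library at 12 hpg. Without the 4 March libraries 9 members passed in *puchi-1* (against 13.7% of all genes), and without its 12 hpg replicate 2, 10 passed (against 20%).

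In the bends at 12 hpg compared with ‘No LR’ segments, 17 of 63 members passed in *puchi-1* and were lower, against 24.3% of all genes in either direction and 13% for lower. In WT 4 passed and were lower, against 4.17% and 3.25% of all genes. The 4 of WT, *WRKY24*, *WRKY56*, *WRKY43* and *WRKY7*, were all among the 17, 23.5% of them. *WRKY24* was lower in the bends by 4.27 in *puchi-1* (SE 0.533, adjusted p = 7.89e-06) and by 2.55 in WT (SE 0.481, adjusted p = 0.00284). *WRKY56* was lower by 2.70 and 1.70, and *WRKY43* by 2.41 and 1.51. *WRKY72*, which acts in basal defence, was lower by 2.12 in *puchi-1*, *WRKY26* by 1.34 and *WRKY23* by 1.83. *WRKY15*, *WRKY22*, *WRKY41*, *WRKY48*, *WRKY59*, *WRKY66*, *WRKY28* and *WRKY72*, 8 of those lower at 12 hpg in *puchi-1*, also passed the test by month. The overlap of these calls was not counted over all genes, and both tests use the same libraries. In WT ‘No LR’ segments *WRKY24* had 4.01 CPM in replicate 1 and 40 and 22.5 CPM in the others, and *WRKY43* had 2.73 CPM against 17.3 and 7.75 CPM, the same library that stood near 12 hpg bends in root hair and barrier genes. Without it 17 members passed in WT, 14 lower and 3 higher, while the share of all genes rose to 26.1% (13.7% lower). In *puchi-1* 30 passed without replicate 1 of these segments, 22 lower and 8 higher, against 33.2% of all genes (16.5% lower). With the title month as a covariate 18 passed in *puchi-1* (against 20.1% of all genes) and 13 in WT (against 15%). With only the libraries of the groups compared 9 passed in *puchi-1* (against 3.61%), and in WT no gene of any kind passed. In that WT fit 8 members had an unadjusted p under 0.05 (edgeR), but the share of all genes at this limit was not taken. Without the 12 hpg library of *puchi-1* dated March, 11 passed (against 13.4%). With replicates 2 and 3 of the *puchi-1* ‘No LR’ segments summed to 1 library, 15 passed and were lower (against 13.7% of all genes, and 8.21% for lower). In the same comparison in *puchi-1*, 3 of 4 photosynthesis genes, 2 of 11 jasmonate and wound genes and 1 of 13 touch and fast stress genes were called lower, with medians of -2.40, -2.34 and -1.39. No root hair or barrier gene passed, and their medians were 2.27 and 1.64. The part of these genes in the changes of the members was not tested.

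Between 12 and 18 hpg, 2 members were higher at 18 hpg in *puchi-1* (against 0.684% of all genes in either direction and 0.452% for higher), *WRKY24* by 2.38 (SE 0.511, adjusted p = 0.0296) and *WRKY56* by 2.00 (SE 0.462, adjusted p = 0.0401). In WT 0 passed (against 0.116%), with 5 at an unadjusted p under 0.05 (against 10.6% of all genes) and 3 by DESeq2 (against 1.11%). In WT *WRKY24* had a log2FC of 1.86 (edgeR, adjusted p = 0.122). The calls in *puchi-1* were lost without any 1 of its 12 hpg libraries or without replicate 1 or 2 at 18 hpg, each of which left 0 members past the test. These comparisons share the 12 hpg libraries with those against ‘No LR’ segments.

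Of the genes that work with the family, *MKK5* and *PHO1* passed the test between the genotypes over the bends, where 10.9% of all genes did. Of 6 MAP kinase genes, *MKK5* was lower in *puchi-1* over the bends, by 0.21 on the log2 scale (adjusted p = 0.0287), and the others did not pass. The 4 genes of VQ proteins, which bind WRKY proteins, did not pass between the genotypes over the bends. At 12 hpg compared with ‘No LR’ segments in *puchi-1*, 2 of the 4 were lower, *SIB2* by 1.48 (adjusted p = 0.000712) and *JAV1* by 1.04 (adjusted p = 0.0113). So were 2 of the 6 kinase genes, *MPK3* by 1.68 (adjusted p = 0.0408) and *MEKK1* by 0.78 (adjusted p = 0.0075), where 13% of all genes were called lower. Most genes of both lists also passed the test by month. *MPK3* had 37 CPM in the *puchi-1* 12 hpg library dated March and 88.7 and 169 CPM in the others. Of 15 genes known as targets, 10 were over the limit on reads, and 1 of them, *PHO1*, passed over the bends. *PAD3*, the last enzyme of camalexin synthesis, lay between 25.8 and 51.4 CPM in *puchi-1* and between 27.5 and 56.6 CPM in WT, whereas *WRKY33*, its activator, ranged from 26 to 568 CPM over the same libraries.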

How the data were processed

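RNA of 36 libraries was sequenced, 3 biological replicates of each of 12 groups of genotype and stage. The authors used bcl2fastq 2.20 to demultiplex, TopHat2 2.1.1 over Bowtie2 2.3.5.1 to align to TAIR10.1, and SAMtools 1.9 to sort, and alignments with more than 6 mismatches were dropped. The deposited values are raw counts per gene without normalization, from reverse-stranded counting in featureCounts 2.0.0.

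Here the tests were run in edgeR 4.0.16 under R 4.3.3: genes with at least 15 reads summed over the libraries, TMM scaling, 1 quasi-likelihood fit of the 12 groups (24 residual degrees of freedom, biological coefficient of variation 0.268). Benjamini-Hochberg adjustment ran over all 25889 genes, and a call is an adjusted p under 0.05 at any fold. The study used DESeq2, run here as an alternative (version 1.42.0). Library totals of 31.7 to 121.6 M reads limit the precision of members under 1 CPM. Log2 CPM carries a prior count of 2.

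Other settings tried were another scaling, filter and tool, the replicate as a block, the title month as a covariate, only the compared groups, and each library left out. The test by month, the fit without the March libraries and the fit with a pair of ‘No LR’ libraries summed were added after seeing the data. The edgeR script was tested on simulated data. Members are named where they passed a test, had the smallest p, the highest or lowest level or the widest spread, or belong to a role list. The members and lists were chosen with earlier results of these data known. Libraries of the same replicate number deviated together at 18 hpg in every pair (correlation over genes of the deviations from the group means, 0.101 to 0.374). At each other stage at least 1 pair was not over 0.1.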

Additional observations from a re-analysis of the deposited data

Results flagged for a closer look

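*WRKY68*, which is outside the 63 members because it was under the limit on reads, had 4 reads summed over the 36 libraries, above 3 reads.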

How the results depend on the processing

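Of the members named in each comparison, none turned its direction under an alternative run. Fits with 1 library left out were checked for this only where the member was called between the genotypes. With DESeq2 the members past the test numbered 2 at 24 hpg (against 2.28% of all genes) and 1 at 30 hpg (against 0.898%) between the genotypes. For 12 hpg against ‘No LR’ in WT 7 passed (against 9.57%). For 18 against 12 hpg 3 passed in WT (against 1.11%) and 4 in *puchi-1* (against 3.53%). Over the bend times in WT 18 passed (against 37.7%). Without a filter 0 passed between the genotypes in ‘No LR’ segments (against 0.681%), and with filterByExpr 1 passed at 30 hpg (against 0.638%). With the replicate block 0 passed in ‘No LR’ segments (against 0.688%) and 0 at 36 hpg (against 0.977%). The block left 2 for 12 hpg against ‘No LR’ in WT (against 4.93%) and 1 for 18 against 12 hpg in *puchi-1* (against 0.483%). With the month as a covariate 1 passed at 30 hpg (against 0.653%) and 13 for 12 hpg against ‘No LR’ in WT (against 15%). For 18 against 12 hpg the month fit gave 4 in WT (against 2.89%) and 5 in *puchi-1* (against 4.95%). Over the bend times in WT the count was 21 (against 38.3%). With only the libraries of the groups compared the counts were 0 in ‘No LR’ segments (against 0.00425%) and 12 over the bends (against 18.5%). For 12 hpg against ‘No LR’ they were 0 in WT (against 0%) and 9 in *puchi-1* (against 3.61%). For 18 against 12 hpg they were 3 in WT (against 1.85%) and 4 in *puchi-1* (against 7.47%). Without the March libraries the counts were 0 in ‘No LR’ segments (against 0.618%) and 4 over the bends (against 5.18%). For 12 hpg against ‘No LR’ they were 1 in WT (against 2.64%) and 11 in *puchi-1* (against 11.7%). In *puchi-1* they were 0 for 18 against 12 hpg (against 0%) and 9 over its bend times (against 13.7%). With *puchi-1* ‘No LR’ replicates 2 and 3 summed, 0 passed between the genotypes in these segments (against 0.247%). For 12 hpg against ‘No LR’ in *puchi-1* 15 then passed (against 13.7%).

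Leaving out 1 library at a time gave, between the genotypes, 0 to 1 members in ‘No LR’ segments, 0 at 12, 18 and 30 hpg, 0 to 1 at 24 and 36 hpg (1 at 24 hpg without WT replicate 1) and 5 to 8 over the bends. For 12 hpg against ‘No LR’ the range was 11 to 30 in *puchi-1* and 1 to 17 in WT, where the lowest value came without ‘No LR’ replicate 2 or 12 hpg replicate 1 or 2, and 2 passed without ‘No LR’ or 12 hpg replicate 3. For 18 against 12 hpg it was 0 to 3 in *puchi-1* and 0 in WT, over the bend times 10 to 20 in *puchi-1* and 9 to 13 in WT, for genotype by time 0, and for the month 20 to 29. The 11 and 30 in *puchi-1* and 17 in WT for 12 hpg against ‘No LR’ stood against 13.4%, 33.2% and 26.1% of all genes. The 10 over the bend times of *puchi-1* stood against 20%. For the other left-out libraries the share over all genes was not taken.

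At 18 hpg, where replicate numbers paired the libraries, 0 members passed with or without the replicate block (against 0.433% and 0.421% of all genes). Elsewhere the pairs differed. In ‘No LR’ segments pairs 1 and 3 had correlations of 0.658 and 0.547 and pair 2 one of -0.126, and at 30 hpg the values were 0.224, 0.223 and 0.034, with each library closest to its own number. The block took the adjusted p of *WRKY45* in ‘No LR’ segments to 0.0906, of *WRKY71* at 36 hpg to 0.0713 and of *WRKY26* over the bends to 0.0965. Counts under about 10 reads, as for *WRKY71* in WT, limit what a single library can show.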
